A study of Mus musculus with 8 samples.

Results

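The promoter sites found only in control are 560 of the 8077 H3K27me3 binding sites (BSs) of untreated mouse embryonic stem cells (mESCs). They were chosen by the presence of peaks alone. A control BS was a merged region with a peak of both control ChIP-Seq libraries, and a morphine BS was built in the same way from the 2 morphine libraries. A control BS was kept if it overlapped no morphine BS and lay within 1 kb of the 5′ end of a named locus of the RNA-Seq count table. Of the 3085 control BSs at such 5′ ends, the 560 make up 18.2%, and the other 2525 overlapped a morphine BS and are called shared. At the same kind of 5′ end, 518 of 3049 morphine BSs (17.0%) overlapped no control BS.

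The cells were mESCs that carry GFP under the Oct4 promoter, cultured without feeders on gelatine. The methods also describe a condition with leukaemia inhibitory factor and 2 inhibitors (2i), without saying which libraries it applies to. Controls (C) received medium with NaCl, and treated cells (M) received medium with 10 µM morphine, for 24 h. Each condition has 2 H3K27me3 ChIP-Seq libraries (C1, C2, M1, M2) and 2 poly(A) RNA-Seq libraries that carry the same replicate numbers. The labels do not say whether the RNA replicates were separate cultures, so the p-values below measure only the spread between these samples. The study asked how morphine changes the distribution of H3K27me3 and the transcriptome.

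H3K27me3 is trimethylation of lysine 27 of histone H3. It is laid down by Polycomb repressive complex 2 (PRC2), whose EZH2 subunit is the methyltransferase and whose EED and SUZ12 subunits keep the enzyme active. In embryonic stem cells the mark is known from CpG islands at the promoters of developmental genes, which are silent or weakly transcribed until a lineage is chosen. CpG islands are stretches rich in the dinucleotide CG, which is rare in most of the genome because methylated cytosines mutate.

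The peak lists and the RNA were checked before use. C1, C2, M1 and M2 hold 10305, 13778, 8681 and 12282 peaks, with median widths of 2803, 2808, 2911 and 2831 bp and no peak wider than 8642 bp. No list has a peak inside any of the 4 Hox clusters, which are textbook PRC2 targets in these cells. None of the 39 Hox genes of the count table has a control BS at its 5′ end. The study used the Hox region as the positive control when it checked the immunoprecipitated DNA by PCR, before the libraries were made. The summed RNA level of 8 embryonic stem cell markers, among them Pou5f1 and Nanog, was 4792 and 4748 CPM (library-scaled counts) in C and 4961 and 4809 CPM in M. The summed levels of fibroblast, mesoderm, neuroectoderm and primitive endoderm markers lay between 4.35 and 45.9 CPM in every library. The total RNA count ran from 25081266 to 29531096 per library.

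The sequences below show where the sites sit relative to the promoter. For 3 genes whose control-only site lies beside the 5′ end, the 300 bases at the 5′ end (250 before it and 50 after it) are set against the 300 bases in the middle of the site, and for 2 genes whose site covers the 5′ end the promoter window is shown, for Ffar3 with the middle of the site. The middle of the Il12rb2 site overlaps its promoter window and is not printed. Vezf1 and Il12rb2 are among the strongest sites without any morphine peak. Among the loci at control-only sites, Cdh1 and Hk2 are among the most highly transcribed, and Ffar3 has the smallest p of those with more RNA after morphine. Bases were read from the GRCm38 genome, which has the coordinates of mm10, 5′ to 3′ on the strand of the gene, and capitals mark each CG. Vezf1 encodes a zinc finger transcription factor of blood vessel development, Cdh1 the adhesion protein E-cadherin, Hk2 a hexokinase of glycolysis, Il12rb2 a subunit of the interleukin-12 receptor and Ffar3 a receptor for short-chain fatty acids.
Vezf1 promoter window, chr11:88068029-88068328, plus strand: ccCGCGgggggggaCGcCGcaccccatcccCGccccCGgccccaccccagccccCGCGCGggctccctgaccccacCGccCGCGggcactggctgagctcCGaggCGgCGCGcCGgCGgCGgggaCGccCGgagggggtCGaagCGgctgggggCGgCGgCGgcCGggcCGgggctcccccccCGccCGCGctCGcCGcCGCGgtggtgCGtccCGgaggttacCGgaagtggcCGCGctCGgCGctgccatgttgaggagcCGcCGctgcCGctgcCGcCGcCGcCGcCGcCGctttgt
Vezf1 middle of the site, chr11:88070624-88070923, plus strand: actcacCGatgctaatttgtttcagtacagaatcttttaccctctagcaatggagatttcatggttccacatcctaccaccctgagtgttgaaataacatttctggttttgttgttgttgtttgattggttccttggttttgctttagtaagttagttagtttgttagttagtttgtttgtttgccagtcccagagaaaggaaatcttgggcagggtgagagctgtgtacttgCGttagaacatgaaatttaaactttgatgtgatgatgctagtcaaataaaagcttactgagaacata
Cdh1 promoter window, chr8:106603100-106603399, plus strand: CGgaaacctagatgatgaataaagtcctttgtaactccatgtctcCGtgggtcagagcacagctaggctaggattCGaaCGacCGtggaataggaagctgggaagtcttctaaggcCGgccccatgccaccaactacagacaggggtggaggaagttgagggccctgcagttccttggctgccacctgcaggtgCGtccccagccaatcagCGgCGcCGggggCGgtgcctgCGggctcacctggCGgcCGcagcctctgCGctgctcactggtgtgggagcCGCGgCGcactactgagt
Cdh1 middle of the site, chr8:106601811-106602110, plus strand: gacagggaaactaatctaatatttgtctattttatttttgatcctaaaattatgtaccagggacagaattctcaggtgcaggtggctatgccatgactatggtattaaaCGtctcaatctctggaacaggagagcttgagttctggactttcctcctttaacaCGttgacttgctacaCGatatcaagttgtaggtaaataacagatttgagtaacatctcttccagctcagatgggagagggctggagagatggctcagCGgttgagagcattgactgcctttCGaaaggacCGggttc
Hk2 promoter window, chr6:82774405-82774704, minus strand: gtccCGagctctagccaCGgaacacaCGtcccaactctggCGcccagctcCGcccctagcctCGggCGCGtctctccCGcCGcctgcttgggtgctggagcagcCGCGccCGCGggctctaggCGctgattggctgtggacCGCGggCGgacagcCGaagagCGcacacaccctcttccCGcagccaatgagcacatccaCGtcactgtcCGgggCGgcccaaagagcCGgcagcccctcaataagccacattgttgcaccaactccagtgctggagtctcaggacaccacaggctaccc
Hk2 middle of the site, chr6:82776029-82776328, minus strand: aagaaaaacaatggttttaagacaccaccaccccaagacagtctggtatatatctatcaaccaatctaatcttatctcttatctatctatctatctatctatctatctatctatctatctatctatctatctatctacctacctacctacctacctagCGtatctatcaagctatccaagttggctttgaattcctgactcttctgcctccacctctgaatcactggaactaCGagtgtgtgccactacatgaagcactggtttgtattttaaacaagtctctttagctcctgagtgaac
Il12rb2 promoter window, chr6:67376088-67376387, minus strand: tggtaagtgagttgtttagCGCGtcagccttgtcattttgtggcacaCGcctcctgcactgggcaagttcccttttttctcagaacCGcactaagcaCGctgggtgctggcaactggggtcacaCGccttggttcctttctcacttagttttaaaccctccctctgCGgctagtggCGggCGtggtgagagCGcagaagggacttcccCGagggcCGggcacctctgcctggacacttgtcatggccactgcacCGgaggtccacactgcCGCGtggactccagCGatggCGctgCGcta
Ffar3 promoter window, chr7:30856129-30856428, minus strand: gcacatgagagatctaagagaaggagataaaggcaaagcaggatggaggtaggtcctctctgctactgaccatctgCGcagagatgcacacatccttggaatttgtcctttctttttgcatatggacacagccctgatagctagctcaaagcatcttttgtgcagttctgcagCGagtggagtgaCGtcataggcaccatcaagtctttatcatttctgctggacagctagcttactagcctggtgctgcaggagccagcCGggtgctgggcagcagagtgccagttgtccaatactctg
Ffar3 middle of the site, chr7:30854972-30855271, minus strand: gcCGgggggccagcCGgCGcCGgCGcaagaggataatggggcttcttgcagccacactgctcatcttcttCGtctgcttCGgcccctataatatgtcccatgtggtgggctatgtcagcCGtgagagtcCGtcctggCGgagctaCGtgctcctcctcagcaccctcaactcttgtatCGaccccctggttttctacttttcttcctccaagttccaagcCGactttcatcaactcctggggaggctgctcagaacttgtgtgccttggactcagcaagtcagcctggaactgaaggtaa

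The Vezf1 promoter window holds 51 CG, a number reached by 0.695% of the 35516 such windows of named loci, and the middle of its site holds 2. The Cdh1 promoter window holds 18 and the middle of its site 6. The Hk2 promoter window holds 25 and the middle of its site 2. In these 3 genes the middle of the site held fewer CG than the promoter window, although the 6 of Cdh1 equal the median of all promoter windows. The windows of Cdh1 and Hk2 also take in bases at the edge of their own sites, so the contrast holds for the middle of the site alone. The Il12rb2 window, which lies under its peak, holds 18 CG, and as for the 18 of Cdh1 this number is reached by 27.8% of all windows. The middle of the Il12rb2 site holds 8. The Ffar3 window holds 4 CG, a number reached by 67.0% of all windows, and the middle of its site holds 13, so the order is the opposite one there.

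Absence from the morphine consensus did not mean absence of peaks in M. Of the 560 sites, 286 (51.1%) had a peak in M2 only, 124 (22.1%) had a peak in M1 only and 150 (26.8%) had none in either. No site had a peak in both M libraries. The sites thus rest in part on which single morphine library had no peak. Where there was a peak in M2 it covered a median of 93.4% of the site, and where there was a peak in M1 it covered a median of 88.9%. If the M condition is taken as M2 alone, which has more peaks, 276 of the control sites at promoters remain without a counterpart, and with M1 alone 439 remain. The sites found only after morphine were alike in this respect, with 166 of 518 (32.0%) under a peak of C1 only and 148 (28.6%) under a peak of C2 only.

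The sites were weak in control. Each peak carries the score of the peak caller, the p-value of the peak as log10 multiplied by -10, and the lowest deposited score is 50. The median score of the 560 sites was 74.9 in C1 and 85.5 in C2. The lower of the control scores had a median of 68.0 and ran from 50.1 to 258.6, against a median of 124 for the shared sites and 69.9 for the sites found only after morphine, which were scored in M. Both control scores reached 100 at 78 sites (13.9%), compared with 64.6% of the shared sites. Peaks of M1 and M2 at the control-only sites had median scores of 72.1 and 74.0. These scores come from the same peaks that chose the sites and are a description only.

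**Figure D1:**
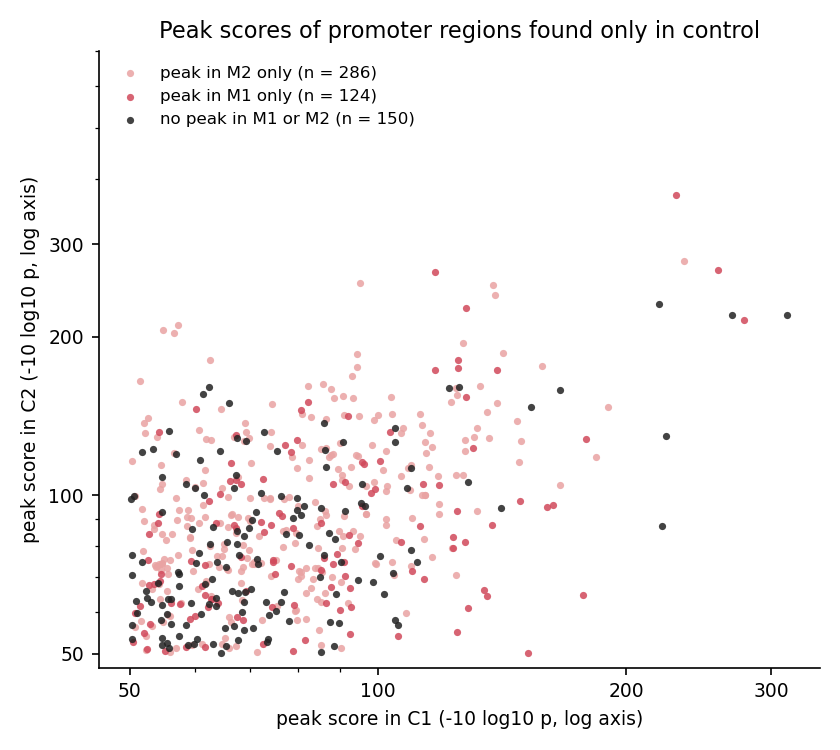
Peak scores of the 560 promoter sites found only in control, with the score in C1 on the x axis and in C2 on the y axis (both -10 log10 p, log axes) and 1 point per site. Most points lie below 100 on both axes or on one of them, and sites with a peak in M2 only (286), in M1 only (124) or in neither (150) are mixed over the whole range.

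The strongest sites with no peak in either morphine library were those of Zbtb7c, Vezf1, Gm10649, Il12rb2, Sema4c, Dnajc22, Fgfrl1, Stau2, Rpl10l, Rnf138rt1, Bbs7 and Cdh1. Zbtb7c, a zinc finger and BTB domain protein, had scores of 269 in C1 and 221 in C2 for a site that began 30 bp downstream of its 5′ end. The site of Vezf1 (chr11:88068346-88073202), in its first kilobases downstream of the 5′ end, had scores of 314 and 220. The site of Il12rb2 (chr6:67373697-67379247) covered the 5′ end with scores of 166 and 159. The nearest morphine BS to these sites was 119721 bp away for Zbtb7c, 94541 bp for Vezf1 and 8970 bp for Il12rb2.

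Sema4c, a transmembrane semaphorin of axon guidance, had scores of 153 and 147 at a site over its 5′ end. Fgfrl1, an FGF receptor that lacks the kinase domain, had scores of 126 and 161 at a site that ended 347 bp upstream of its 5′ end, and a morphine BS lay only 323 bp from that site. Stau2, an RNA-binding protein that carries mRNAs into dendrites, had scores of 122 and 160 at a site 281 bp upstream. Bbs7, a subunit of the ciliary BBSome, had scores of 105 and 134 at a site 187 bp upstream. Both a gene with no count in any RNA library (Gm10649) and one at 83.8 CPM per kb (Cdh1) are among these 12.

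Ranked by the lower of the control scores, the first 3 of all 560 sites kept a peak in one M library, and they are named here after their values were seen. The site of Hes5, a Notch target that holds neural progenitors undifferentiated, had scores of 259 in C1 and 269 in C2 and still 221 in M1, with no peak in M2. The site of Nfil3, a leucine zipper repressor, had 235 and 278 in C and 82.7 in M2. The site of Myb, a transcription factor of blood progenitors, had 230 and 372 in C and 88.3 in M1. These 3 sites count as found only in control because 1 of the 2 morphine lists has no peak there.

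The sites were 3532 bp wide at the median (1505 to 9327 bp). The rule lets a site reach or merely approach the 5′ end, and both kinds were common. Of the 560, 290 (51.8%) covered the nearest 5′ end, 143 (25.5%) lay downstream of it and 127 (22.7%) upstream. Among the shared sites 63.2% covered it, 25.6% lay downstream and 11.2% upstream, and among the sites found only after morphine 77.4% covered it and 6.18% lay upstream. Upstream sites made up more of the control-only set than of the other sets, as a description without a test. Within the control-only set, 79 of the 124 sites with a peak in M1 only covered the 5′ end, 136 of the 286 with a peak in M2 only and 75 of the 150 with neither, and the median widths were 4557, 3297 and 3532 bp. The farthest sites taken in were those of Nup93, Arhgap42 and Lrp4 at 988, 991 and 993 bp from the 5′ end, and the nearest left out were at 1019, 1020 and 1023 bp (Epb41l3, Gm5105 and Map3k9), with control scores between 50.2 and 143 in these 6.

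Read every 100 bp, the 674 distinct 5′ ends at these sites had a dip of peaks around the 5′ end in C1, C2 and, less deep in percentage points, M2. At 1 kb before the 5′ end 54.2% were under a peak of C1 and 58.0% under a peak of C2. At the 5′ end the shares were 44.2% and 46.4%, and at 1 kb after it 61.9% and 63.2%. Within 1 kb of the 5′ end the C1 and C2 shares were lowest 100 bp before it, at 43.6% and 46.0%. The M1 shares at the same places were 15.7%, 17.1% and 18.8%, and the M2 shares were 29.8%, 26.6% and 32.3%, with 25.2% at 100 bp before the 5′ end. At the 629 5′ ends of the sites found only after morphine, the M1 shares were 53.9%, 70.6% and 81.4% and the M2 shares 53.6%, 66.1% and 79.2%, with no dip in the libraries that chose those sites. The C1 shares there were 18.4%, 19.6% and 27.03%, and the C2 shares 16.1%, 11.1% and 19.4%, so C2 was lower at the 5′ end than 1 kb to either side of it.

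At the 3079 5′ ends of the shared sites, 56.7% and 56.8% were under a peak of C1 and C2, and 71.5% and 68.4% under a peak of M1 and M2. At 1 kb before the 5′ end the 4 shares lay between 54.9% and 58.3%. The control libraries thus had fewer peaks over the 5′ end proper than the morphine libraries also where both conditions had a BS. The part of this difference in the choice of the 560 sites was not tested.

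**Figure D2:**
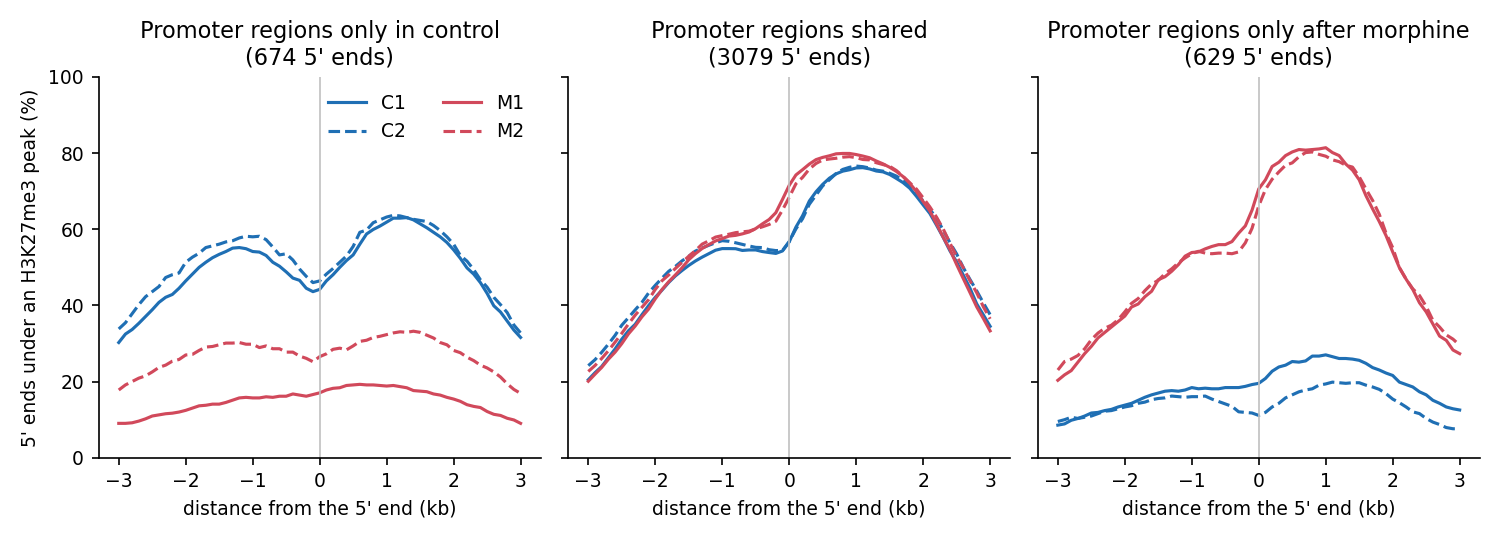
Share of 5′ ends under an H3K27me3 peak (y axis, %) by distance from the 5′ end (x axis, kb, negative upstream) in C1 and C2 (blue) and M1 and M2 (red), for the promoter sites found only in control (674 5′ ends), shared (3079) and found only after morphine (629). In the left panel both control lines dip, with 44.2% and 46.4% at 0, M2 dips as well, with 26.6% at 0, and M1 lies at 17.1% there, and in the middle panel the morphine lines lie above the control lines at 0.

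Sites on both sides of one 5′ end show the dip in single genes. H2afy, which encodes the histone variant macroH2A1, had a control-only site 462 bp downstream of its 5′ end with scores of 110 and 90.7 and another 884 bp upstream with scores of 62.7 and 181. The promoter window between them holds 37 CG. Atrnl1 had sites 714 bp upstream and 600 bp downstream of a window with 41 CG, and Tbc1d12 had sites 861 bp upstream and 738 bp downstream of a window with 26 CG. A pair of neighbouring tRNA loci on chromosome 11 was flanked in the same way. The flanking sites of H2afy both had a peak in M2, and those of Atrnl1 had one in M2 upstream and one in M1 downstream. These are all the loci within 1 kb of more than one control-only site.

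The sequence under the sites was poorer in CG than under the other promoter sites. The median GC content of the control-only sites was 46.5%, with 17.6 CG per kb and an observed to expected CG ratio of 0.315. The shared sites had 48.6%, 21.7 per kb and 0.373, and the sites found only after morphine 50.5%, 24.7 per kb and 0.411. The 300-base promoter windows at the control-only sites held a median of 15 CG at a GC content of 60.0%, against 19 CG and 62.3% at the shared sites, 18 CG and 61.7% at the sites found only after morphine, and 6 CG and 52.3% over all 35516 windows. A CG ratio above 0.6 together with a GC content above 50% was found in 49.1% of the control-only windows, 58.0% of the shared windows, 56.0% of those found only after morphine and 31.4% of all windows. The median GC content of the control-only sites was 48.7% where M1 had a peak, 45.8% where M2 had one and 46.8% where neither had. GC content moved with the choice of the sites, and its part in it was not tested.

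The promoter window held more CG than the middle of the site at most sites, and most often where the site lay beside the 5′ end. A window can still reach into the edge of a site that lies close beside the 5′ end, so the comparison is with the middle of the site alone. At the 127 upstream sites the promoter window held a median of 25 CG and the middle 300 bases of the site 3, and the promoter window held more in 117 (92.1%). At the 143 downstream sites the medians were 19 and 3, and the promoter window held more in 132 (92.3%). At the 290 sites over the 5′ end they were 12 and 4, with more in the promoter window in 210 (72.4%). In 42 of these 290 both windows share bases, which reduces the difference by construction, and among the other 248 the promoter window held more in 189 (76.2%). The shared sites had the same pattern, with medians of 27 and 2 upstream (more in the promoter window in 94.0%), 24 and 3 downstream (94.7%) and 17 and 6 over the 5′ end (72.5%). Vezf1, Cdh1 and Hk2, whose sequences are given above, belong to the first 2 kinds. By annotation the middle of the site fell in an intron in 271 cases, between genes in 213, in a coding exon in 27, in an untranslated exon in 26 and in an exon of a noncoding transcript in 23, and 530 sites (94.6%) also lay within 1 kb of a transcription start site of GENCODE.

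Genes with a site beside the 5′ end were transcribed more than genes with a site over it. RNA is given as CPM per kb of locus length, so that genes can be compared. For the nearest locus of the 290 covering sites the median was 0.185 and 0.186 in C1 and C2 and 0.222 and 0.214 in M1 and M2. For the 143 downstream sites it was 1.27 and 1.27 in C and 1.16 and 1.18 in M. For the 127 upstream sites it was 3.23 and 3.08 in C and 3.19 and 3.12 in M. The order of the 3 kinds was the same in all 4 libraries.

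A level of at least 1 CPM per kb was reached by 29.7% of the loci with a covering site, 53.1% of those with a downstream site and 67.7% of those with an upstream site. The shared sites had the same order, with medians of 0.440, 2.64 and 7.01 CPM per kb, while the sites found only after morphine had 0.700, 4.30 and 3.27 CPM per kb. The rank correlation over the 560 sites between the lower control score and the RNA level of the nearest locus was 0.14 (Spearman), a description over sites that share the same libraries.

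**Figure D3:**
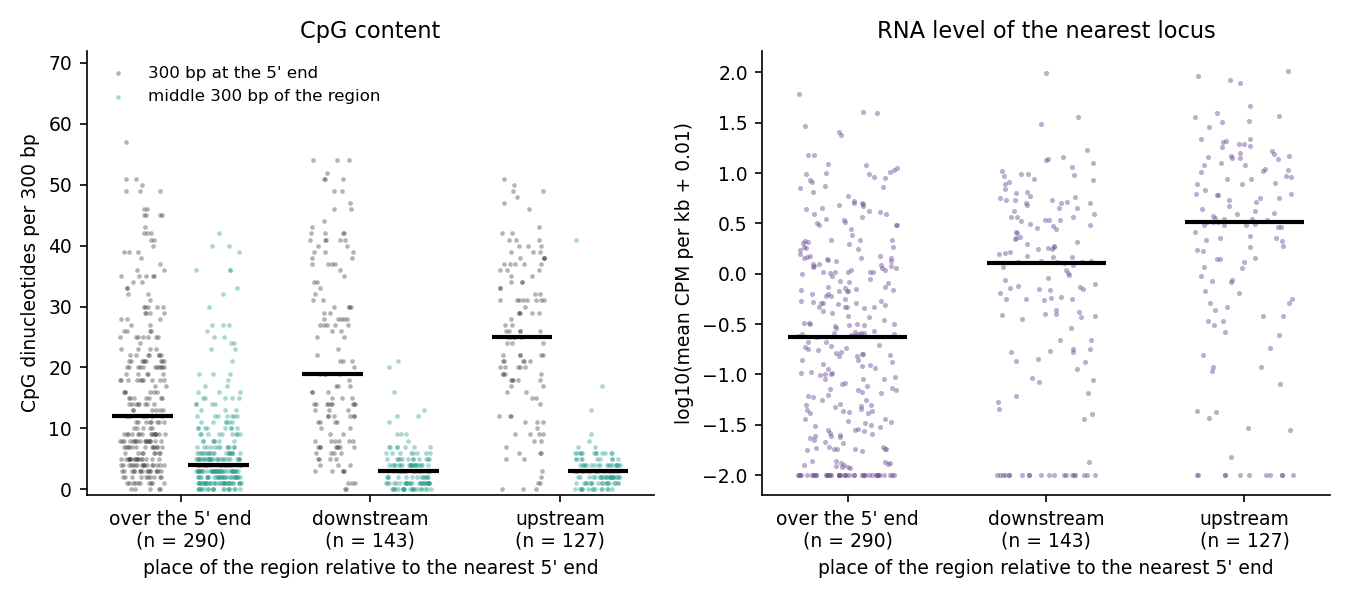
Left, number of CG dinucleotides (y axis) in the 300 bp at the 5′ end (grey) and in the middle 300 bp of each control-only promoter site (green). Right, RNA level of the nearest locus as log10 of the mean CPM per kb over the 4 libraries plus 0.01. The x axis gives the place of the site, points are sites and bars medians. Upstream sites have the most CG at the 5′ end (median 25) and the highest RNA (3.23 CPM per kb), and covering sites the least (12 and 0.227).

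The most highly transcribed loci at these sites were Uchl1, Nup93, Hk2, Cdh1 and Hnrnph1, and in all 5 the site lay beside the 5′ end. Uchl1, a neuronal ubiquitin hydrolase, stood at 114 and 121 CPM in C and 131 and 129 CPM in M, or 103 CPM per kb, with its site 611 bp upstream. The Uchl1 locus overlaps another one in the annotation, so its reads are uncertain. Hk2 stood at 563 and 514 CPM in C and 489 and 483 CPM in M, with its site 239 bp upstream. Cdh1 stood at 423 and 417 CPM in C and 415 and 411 CPM in M, with its site 127 bp upstream and no peak in M. These 3 genes had abundant RNA in untreated cells although a H3K27me3 peak of both control libraries lay within 1 kb of their 5′ ends. Nup93, a nucleoporin, and Hnrnph1, a splicing regulator, were at 99.6 and 78.1 CPM per kb.

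The 560 sites lie at 821 loci with 670 gene names, and 155 sites have more than 1 locus. The loci had RNA more often than named loci in general, and few were highly transcribed. The median level was 0.283, 0.323, 0.293 and 0.320 CPM per kb in C1, C2, M1 and M2. It was between 0.417 and 0.426 for the loci of shared sites, and between 0.0607 and 0.0643 over all named loci. Of the 821 loci, 107 (13.0%) had no count in any library, 267 (32.5%) reached 1 CPM per kb and 65 (7.92%) reached 10. Over all named loci these shares were 34.0%, 30.0% and 14.5%. In bulk RNA, fewer cells with a transcript and less of it per cell cannot be told apart.

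No locus at these sites passed the test between morphine and control. Of the 821 loci, 485 passed the filter on low counts and entered the edgeR quasi-likelihood fit over all 20350 loci. None of the 485 had a Benjamini-Hochberg adjusted p under 0.05, where 1.52% of all tested loci did. An unadjusted p under 0.05 was found at 79 of the 485 (16.3%), against 20.5% of all tested loci, with 31 higher (9.70% of all loci) and 48 lower after morphine (10.8% of all loci). The edgeR exact test called 5 of the 485 at the same threshold, where it called 3.88% of all loci, and DESeq2 called 6 of the 61 to which it gave an adjusted p (9.84%), where it called 13.2% of all loci with one. The smallest adjusted p in the quasi-likelihood test was 0.0526. Without C2 there were 23 calls, where 7.90% of all loci were called. Without M1 there were 0, where 0.0295% of all loci were called.

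The fold changes centred on 0. The median log2 fold change, morphine against control, was -0.0015 over the 485 loci and 0.0013 over all tested loci, with 240 higher and 245 lower. The middle 90% of the loci lay between -0.39 and 0.47. At the sites without any morphine peak, 137 tested loci had a median of 0.03 and 21 (15.3%) an unadjusted p under 0.05. At the sites with a peak in M1 only the median was 0.04 over 107 loci, and at those with a peak in M2 only it was -0.04 over 241 loci. The shares with an unadjusted p under 0.05 were 16.8% and 16.6% in these last 2 classes, and the difference between the classes was not tested.

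**Figure D4:**
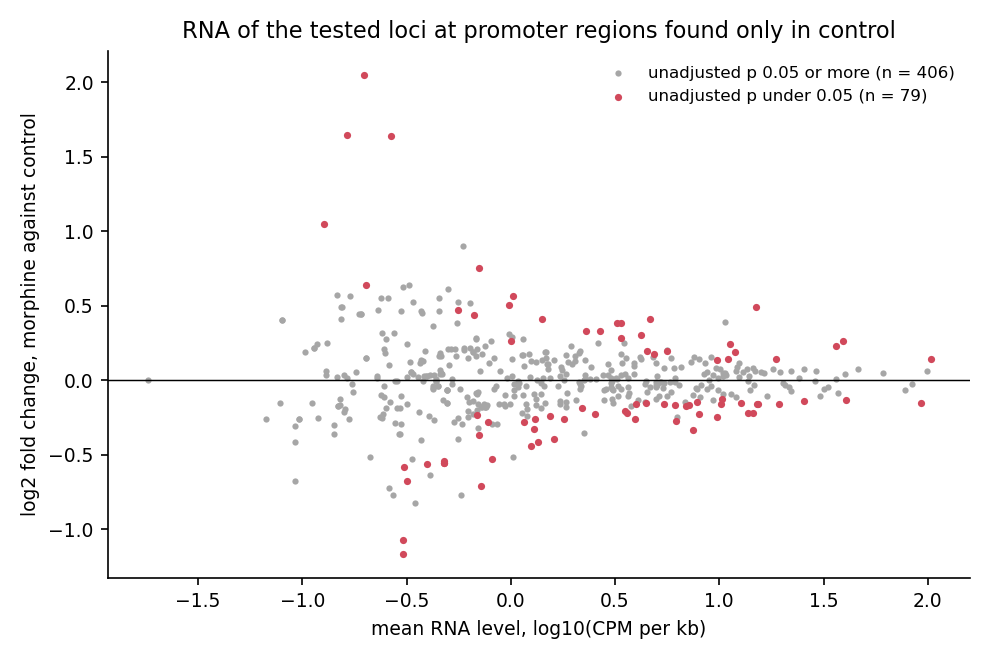
Log2 fold change of RNA, morphine against control (y axis), by mean level (x axis, log10 of CPM per kb) for the 485 tested loci at promoter sites found only in control. Red points are the 79 loci with an unadjusted p under 0.05, and no locus has an adjusted p under 0.05. The spread is widest at low levels, and points lie on both sides of 0 at every level.

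Among the loci at these sites that were higher after morphine, those with the smallest p were Ffar3, Acot7, Slc7a4, Pgc and Calca. Ffar3 had 3 and 4 counts in C1 and C2 and 12 and 16 in M1 and M2, a log2 fold change of 2.05 ± 0.51 (SE) with an adjusted p of 0.0636 (edgeR quasi-likelihood). Its libraries do not overlap between the groups, but the level is low. Its locus overlaps another one in the annotation, as do those of Slc7a4, Pik3c2a, Zfp711 and Frem2 below, so the reads of these 5 are uncertain. Acot7, an acyl-CoA thioesterase, was at 60.5 and 64.4 CPM in C and 76.7 and 69.9 CPM in M, with an adjusted p of 0.0805. Slc7a4, a transporter-like membrane protein, was at 2.80 and 2.51 CPM in C and 3.95 and 3.91 CPM in M, with an adjusted p of 0.0933. Pgc, a digestive protease precursor, and Calca, the gene of calcitonin and CGRP, had log2 fold changes of 0.41 and 0.24 with adjusted p-values of 0.0975 and 0.108. Acot7 has a control-only site of scores 71.4 and 50.5 that keeps a peak in M2, and a morphine BS lies 394 bp from it.

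Among the loci at these sites that were lower after morphine, those with the smallest p were Arl5a, Pik3c2a, Zfp711, Frem2 and Top2b. Arl5a, a small GTPase of the Golgi, was at 46.3 and 40.4 CPM in C and 33.1 and 35.5 CPM in M, a log2 fold change of -0.34 ± 0.08 (SE) and an adjusted p of 0.0526 (edgeR quasi-likelihood). Pik3c2a, a lipid kinase of membrane traffic, was at 71.8 and 66.9 CPM in C and 54.4 and 60.2 CPM in M, with an adjusted p of 0.0581. Zfp711, an X-linked zinc finger gene, was at 3.97 and 3.80 CPM in C and 2.41 and 2.34 CPM in M, with the same adjusted p. Frem2, an extracellular matrix protein, and Top2b, a DNA topoisomerase, had log2 fold changes of -0.58 and -0.22 with adjusted p-values of 0.0841 and 0.0914. In all 10 loci the CPM of the groups do not overlap, as in 244 of the 485 tested loci (50.3%) and in 52.7% of all tested loci, and none of the 10 passed the threshold. Without C2, 8 of the 10 did (all but Slc7a4 and Calca), and without any other single library none did. With the replicate number as a block 7 did, and with DESeq2, which gave an adjusted p to 3 of the 10, Acot7, Pik3c2a and Top2b did.

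**Figure D5:**
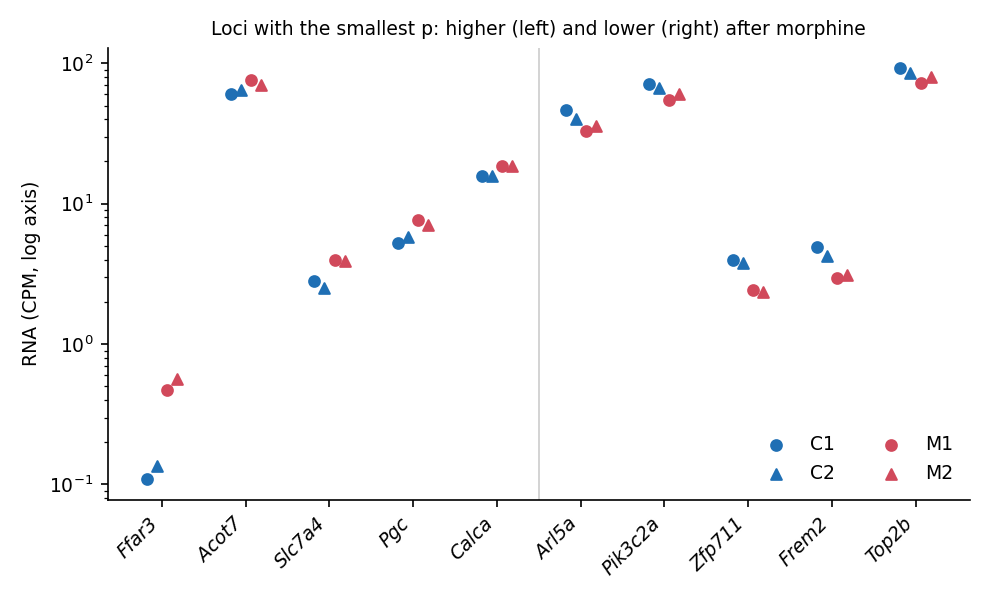
RNA level in CPM (y axis, log axis) of loci at promoter sites found only in control, with 1 point per library (C1, C2 blue and M1, M2 red). Shown are the 5 with the smallest p among those higher (left) and lower (right) after morphine. The groups do not overlap in any of the 10, and the gap is widest in Ffar3, which has 3 to 16 counts per library.

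Gene lists chosen with earlier results of these data known show which kinds of genes carry these sites. The lists are short selections or patterns of gene symbols and do not hold every gene of a kind, so each count is over the listed symbols alone. Of all 32794 gene names of the count table, 670 (2.04%) lie at a control-only site. None of the 5 PRC2 core genes Suz12, Ezh2, Eed, Rbbp4 and Rbbp7 does, nor any of 8 genes of PRC2 accessory subunits and Ezh1, 3 H3K27 demethylase genes, 17 pluripotency factors, 18 selected germline genes or 8 genes of opioid receptors and peptides. Of 21 genes of PRC1 subunits 1 does, Bcor, which encodes a subunit of a variant PRC1 without the CBX proteins that bind H3K27me3. Of 30 lineage transcription factors 1 does, Myod1, the master regulator of muscle. Of 107 listed homeobox genes outside the Hox clusters none does, and of 82 genes of the Fox, Sox, Gata and Tbx families 1 does, Sox8. Genes that the lists do not hold, named here after the members were seen, are the meiosis and germline genes Spo11, Prdm9, Stag3, Hormad2 and Npm2, the homeodomain genes Zhx3 and Satb1, and Bcorl1, the paralogue of Bcor, and all of these lie at a control-only site. Since the peak lists hold no peak in the Hox clusters either, these counts say where the deposited peaks lie and not which developmental genes lack the mark.

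Bcor had control scores of 55.6 and 70.9 at a site 503 bp downstream of its 5′ end and a score of 72.3 in M2. Its RNA stood at 37.5 and 37.0 CPM in C and 35.9 and 38.5 CPM in M. Myod1 had a site over its 5′ end with scores of 95.6 and 116 in C and 105 in M1, and at most 2 RNA counts in any library. Sox8, a factor of neural crest and glia, had scores of 51.8 and 121 and no peak in M, and its longest locus had 8, 9, 9 and 2 RNA counts in C1, C2, M1 and M2.

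Among genes of excitable cells, 6 of 83 neurotransmitter receptor genes lie at such a site (Chrna3, Chrna4, Chrnb3, Grik3, Grik4 and Htr2a), as do 5 of 142 genes of potassium, sodium and calcium channels (Cacna1a, Cacna1f, Cacna2d1, Kcnip4 and Kcnv2). Chrna3, a nicotinic acetylcholine receptor subunit, had control scores of 128 and 154 over its 5′ end and still 147 in M1. Grik3, a kainate receptor subunit, had scores of 66.0 and 150 over its 5′ end and no peak in M, with 10.1 CPM per kb of RNA and a log2 fold change of 0.08 ± 0.05 (SE). Htr2a, a serotonin receptor, had scores of 86.6 and 139 and 58.8 in M2, and 1 RNA count in C1 and none elsewhere. Cacna1a, a neuronal calcium channel subunit, had scores of 53.5 and 123 at a site 527 bp upstream and no peak in M, with 3.02 CPM per kb of RNA. Of the 3 receptor loci and 3 channel loci tested, none had an unadjusted p under 0.05, against 20.5% of all tested loci, and these loci are few.

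Among signalling genes, 7 of 131 genes of interleukins, chemokines and their receptors lie at a control-only site (Cxcl12, Cxcl14, Il12a, Il12rb2, Il1a, Il27 and Il4). Of these, Il12rb2 and both loci of Cxcl14 were tested, and all 3 loci, from 2 genes, were lower after morphine at an unadjusted p under 0.05, as were 10.8% of all tested loci, without passing the adjustment. Il12rb2 stood at 4.77 and 4.65 CPM in C and 3.40 and 3.66 CPM in M, with an adjusted p of 0.147 (edgeR quasi-likelihood). The longer locus of Cxcl14, a chemokine, had 19, 24, 12 and 7 counts in C1, C2, M1 and M2. Of 29 genes of Wnt ligands and Frizzled receptors 2 do, Fzd2 and Fzd4, and 1 of their 2 tested loci was lower after morphine at an unadjusted p under 0.05, as were 10.8% of all tested loci. Fzd2 had 129, 151, 146 and 154 RNA counts in C1, C2, M1 and M2, a log2 fold change of 0.19 ± 0.13 (SE) and an adjusted p of 0.450 (edgeR quasi-likelihood). Fzd4, which had scores of 57.0 and 120 over its 5′ end and no peak in M, had 101, 100, 58 and 73 RNA counts, a log2 fold change of -0.53 ± 0.18 (SE) and an adjusted p of 0.125. Of 24 genes of BMP, GDF and TGF-beta ligands 2 do (Bmp8b and Tgfb3), and of 26 numbered genes of fibroblast growth factors and their receptors 1 does (Fgf11), beside Fgfrl1, which the list does not hold.

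Among membrane and structural genes, 9 of 343 solute carrier genes lie at such a site (Slc9b2, outside the pattern of symbols, also does), 3 of 92 cadherins (Cdh1, Cdh7 and Pcdh19), 2 of 44 collagens, 1 of 51 keratins and 5 of 1437 olfactory and vomeronasal receptor genes. All 9 tested loci of solute carriers had an adjusted p above 0.05, and 3 of them, from 2 genes, were higher after morphine at an unadjusted p under 0.05, as were 9.70% of all tested loci. These were both loci of Slc7a4 and the locus of Slc29a4, a monoamine transporter, which had 200 and 244 counts in C and 289 and 254 in M with an adjusted p of 0.125 (edgeR quasi-likelihood). Of 358 Zfp zinc finger genes 7 lie at a control-only site. Of their 13 tested loci 1, of Zfp711, had an unadjusted p under 0.05, against 20.5% of all tested loci. The shares of the lists are counts over names and were not tested.

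The sites were spread over the genome. On the autosomes they made up between 6.90% (6 of 87 on chromosome 18) and 22.6% (37 of 164 on chromosome 8) of the control BSs at promoters. On the X chromosome they made up 22 of 59 (37.3%), among them the sites of Bcor, Zfp711, Pcdh19 and Cacna1f. The nearest morphine BS was 66986 bp away at the median, within 1 kb of 10 sites and within 20 kb of 126. At 550 of the 560 sites no locus had a morphine BS within 1 kb of its 5′ end.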

How the data were processed

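The members and the gene lists were chosen with earlier results of these data known. ChIP-Seq reads had been mapped by the authors with Bowtie2 (2.3.5.1) on mm10, and MACS peaks were made per library (p-value cut-off of 1e-05). The score deposited for a peak is its log10 p-value multiplied by -10. Reads behind the peaks were not analysed here, and the methods give only a minimum number of reads for each library, so no enrichment was compared. The control library of the peak caller is not given in the sources used here, and the labels and the methods name different antibody suppliers. Peaks of the replicates were merged at an overlap of 1 bp, and the 5′ end of a locus was its lowest start on the plus strand or its highest end on the minus strand. Interval steps were tested on simulated data.

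The deposited RNA-Seq table holds unnormalized counts of each locus, made by the authors with HISAT2 (2.1.0), StringTie (1.3.6) and featureCounts (1.6.4). Whether counting used strand is not stated, so overlapping loci are uncertain. In edgeR 4.0.16 (R 4.3.3), low counts were removed with filterByExpr, library sizes scaled by TMM, and morphine compared with control by the quasi-likelihood test, with Benjamini-Hochberg adjustment over all loci. DESeq2 1.42.0 was an alternative. CPM use the TMM library sizes. Peak measures chose the sites and were not tested.

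Genes named are the 12 strongest sites without a morphine peak, the 5 loci with most RNA per kb, the 5 smallest p-values in each direction, members of the gene lists, the PRC2 core genes and the sites next to the 1 kb limit. Names drawn from the lists of gene families and the 3 strongest sites of all were chosen after their values were seen, and the homeobox pattern was corrected after a first count had taken in other genes. Alternatives were a score of at least 100, equal numbers of peaks, an overlap of 50%, a promoter of 3 kb, the site midpoint, other tests, scalings and filters, the replicate number as a term and leaving out each library.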

Additional observations from a re-analysis of the deposited data

How the results depend on the processing

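The number of control-only promoter sites was 444 with scores of at least 100 in all 4 lists, but only 78 of the 560 sites are among these, and 406 with equal numbers of peaks, 339 of them among the 560. It was 571 when an overlap had to cover 50% of the control site and 746 with a promoter of 3 kb. With the midpoint of the site within 1 kb of the 5′ end it fell to 152, of which 43 had no morphine peak. Leaving out 1 ChIP library gave 276 to 1039 sites and 276 to 439 sites without a morphine peak: without C1 1039 and 434, without C2 886 and 347, without M1 276 and without M2 439. Member loci called in RNA were 0 in the quasi-likelihood test, 6 with DESeq2 (of 61 with an adjusted p) and 5 with the exact test. Without the count filter there were 16, or 2.24% of the 714 member loci tested, against 5.44% of all loci tested. There were 0 with RLE, at an FDR of 0.01 and after removal of length and GC trends, which was added after seeing the data. Leaving out 1 RNA library gave 0 to 23 calls. With the replicate number as a block there were 14 calls, but the libraries share only a number (correlation of the deviations 0.0058 over 2 pairs). The share called was 2.89% of the member loci and 5.54% of all tested loci with the block, and 4.74% and 7.90% without C2. The direction of the 10 member loci with the smallest p did not reverse with RLE, with the block or without any single library. With DESeq2 it was compared for 3 of them and did not reverse. It was not compared with the exact test, without the count filter or after removal of the trends. With 2 libraries per condition, small RNA differences could not be told from replicate spread.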
